A study of Ovis aries with 20 samples.

Results

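The 9 Hedgehog pathway genes SHH, PTCH1, SMO, GLI1, GLI2, GLI3, GAS1, HHIP and BOC were followed in RNA sequencing counts of sheep trachea. They were chosen by gene symbol as the ligand, receptors, signal carrier and transcription factors of the pathway. This choice was made with earlier results of these data known. All 9 were found among the 24478 genes of the count tables, and all 9 were among the 20097 genes that passed the filter on low counts and were tested. The samples were of sheep with cystic fibrosis (CF), in which the epithelial anion channel CFTR fails, and of wild-type sheep (WT), called healthy donors in the labels. Both genotypes were sampled at days 65, 80, 100, 120 and 147, the last being birth, with 2 samples in each of the 10 groups and 20 in all. No label read here names the CFTR allele of the CF animals, their breed or their sex.

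Hedgehog ligands are secreted proteins that bind the receptor PTCH1 on neighbouring cells. Free PTCH1 keeps the membrane protein SMO inactive, and ligand binding releases SMO, which turns GLI transcription factors into activators. In the mouse airway the ligand SHH is made by the epithelium and is received by the mesenchyme around it, and loss of Shh disturbs the separation of trachea and oesophagus and the tracheal cartilage. PTCH1, GLI1 and HHIP are themselves switched on by the pathway, and their RNA is commonly read as its output.

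Total counts per library ran from 42372433 to 87651829. Levels are given as CPM, counts scaled to library size, and levels of different genes are compared only as CPM per kilobase of summed exons. The tissue was bulk, so fewer cells of a type and less RNA per cell cannot be told apart. EPCAM, an epithelial marker, was present in every library at 58.3 to 305 CPM, but so were all 32 fibroblast markers, whose summed level ran from 14628 to 50084 CPM in CF and from 6092 to 61307 CPM in WT. Both WT day 100 libraries were the lowest in the fibroblast list, at 8805 and 6092 CPM. In 4 libraries, 1 from each group of days 65 and 80 and none from later ages, genes of other tissues were high. CF day 65 replicate 2 held liver and erythroid genes, CF day 80 replicate 1 skeletal muscle genes, WT day 65 replicate 2 thymus and muscle genes, and WT day 80 replicate 2 thyroid and thymus genes. In 5 libraries (CF day 120 replicate 1, WT day 80 replicate 1, WT day 100 replicate 1, WT day 120 replicate 2 and WT day 147 replicate 2) long genes were relatively low, with a slope of log2 CPM on log2 gene length under -0.12. Both CF day 147 samples carry the same sample identifier, as do both WT day 100 samples, and CF day 100 replicate 2 shares 1 further identifier with WT day 65 replicate 2. Nothing in the labels says that replicates came from separate animals, so the p-values speak only of the spread among these samples, and that spread may be technical. CFTR RNA was present in both genotypes, at 18.7 ± 10.1 CPM in CF and 23.9 ± 9.08 CPM in WT (SD, n = 10 each).

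Over all 20 libraries the median level per kilobase was highest for the co-receptor BOC, at 16.4 CPM per kilobase. SMO followed at 11.8, GAS1 at 4.26, PTCH1 at 3.88, GLI2 at 2.88, GLI1 at 1.26, GLI3 at 1.07, HHIP at 0.515 and SHH at 0.200 CPM per kilobase. SMO lay above GAS1 in 19 of 20 libraries, GLI2 above GLI1 in 18, and HHIP above SHH in 19, each by more than the spread of their log2 ratio. The other neighbours did not differ beyond that spread. BOC exceeded SMO in 17 of 20 libraries, by 0.58 ± 0.80 on the log2 scale (SD, n = 20), and the highest single level was that of SMO, at 26.9 against 25.2 CPM per kilobase for BOC. PTCH1 exceeded GLI2 in 18 of 20 libraries, by 0.64 ± 0.82, GLI1 exceeded GLI3 in 14, GLI3 exceeded HHIP in 14, and GAS1 exceeded PTCH1 in 9. The ligand had the lowest median of the set.

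**Figure D1:**
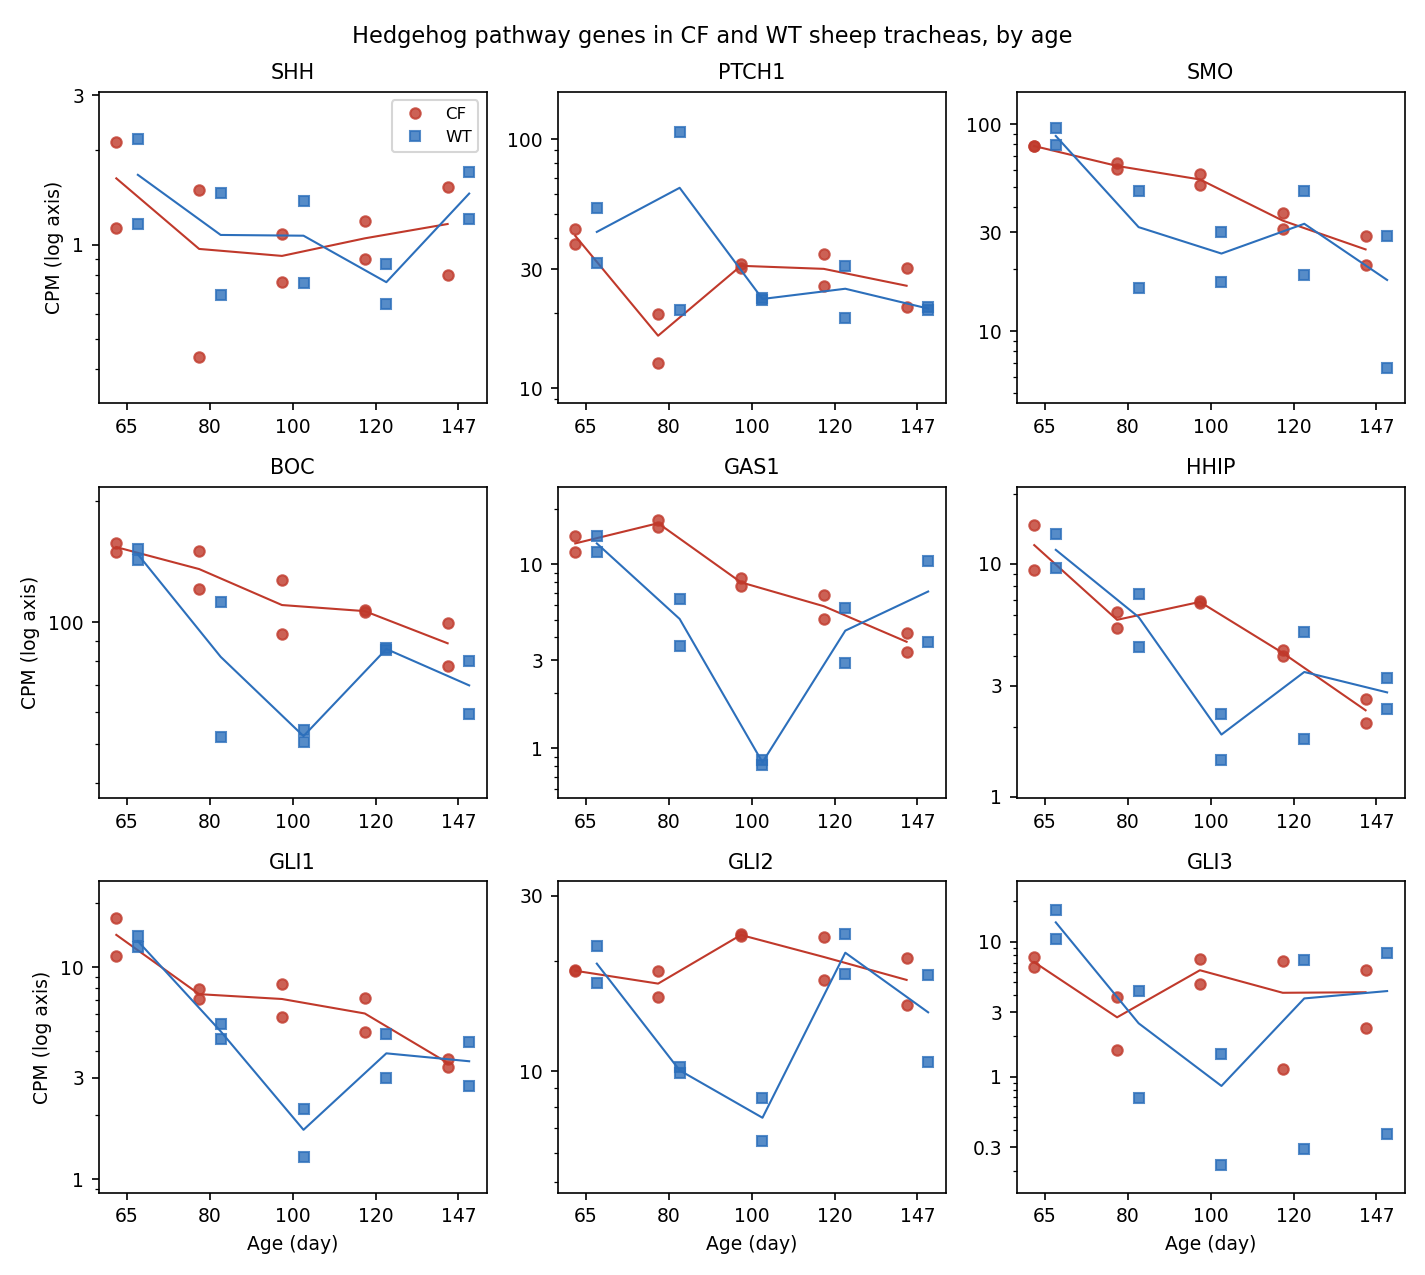
CPM on a log axis (vertical) against age in days (horizontal) for the 9 Hedgehog genes, with CF as red circles and WT as blue squares, 1 point per library and lines through the group means. BOC, GAS1, GLI1, GLI2, GLI3 and HHIP have their lowest WT group mean at day 100, while SHH shows no such dip. GAS1 averaged 7.97 CPM in CF and 0.840 CPM in WT at that age.

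SHH, the ligand gene, lies on chromosome 4 at 116842806 to 116860359 on the minus strand, in the count tables' own coordinates (no source used here names their build). It was detected in every library, with 19 to 172 counts. From day 65 to day 147 its replicate pairs in CF were 2.13 and 1.13, 0.439 and 1.5, 0.761 and 1.08, 1.19 and 0.903, and 1.53 and 0.799 CPM. In WT the pairs at the same ages were 2.18 and 1.16, 1.46 and 0.692, 0.757 and 1.38, 0.871 and 0.648, and 1.21 and 1.70 CPM. Replicates of 1 group often differed as much as groups did. The genotypes overlapped at every age except day 120, where CF lay above WT, as for 8.91% of all tested genes. Over the mean of the ages the CF to WT difference was -0.05 ± 0.30 on the log2 scale (SE), with adjusted p = 0.988 in edgeR's quasi-likelihood test with Benjamini-Hochberg adjustment. None of the 12 comparisons was called for SHH at an adjusted p under 0.05.

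The other ligand genes were measured beside it. IHH, best known from growing cartilage, was higher late than early in both genotypes, without a steady rise. Group means peaked at 4.35 CPM at day 100 in WT, with 2.32 CPM at day 120, and at 3.81 CPM at day 120 in CF, with 2.95 CPM at day 147. Day 100 does not enter the late against early comparison of IHH. IHH averaged 3.38 ± 0.63 CPM at the late ages (days 120 and 147) against 1.31 ± 0.599 CPM at the early ages (days 65 and 80) in CF, and 2.97 ± 0.881 against 0.983 ± 0.637 CPM in WT (SD, n = 4 each). The late libraries lay above all early ones in either genotype, as they did for 9.41% of all tested genes in CF and 5.34% in WT. The log2 changes were 1.36 ± 0.40 in CF (edgeR quasi-likelihood test, Benjamini-Hochberg adjusted p = 0.0437) and 1.66 ± 0.40 in WT (adjusted p = 0.0214). DHH, known from Schwann cells and the testis, had only 6 to 65 counts per library and was not called in any comparison. It averaged 0.635 ± 0.395 CPM in CF and 0.322 ± 0.171 CPM in WT (SD, n = 10 each; adjusted p = 0.247 by the edgeR test over the mean of the ages).

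Per kilobase, IHH exceeded SHH in 17 of 20 libraries. At the late ages IHH had a median of 0.985 and SHH of 0.183 CPM per kilobase, and IHH was the higher in 8 of 8 libraries. At the early ages the medians were 0.257 for IHH and 0.229 for SHH, and IHH was the higher in 5 of 8. The median over all 20 libraries was 0.859 for IHH, 0.233 for DHH and 0.200 CPM per kilobase for SHH. Summed levels of 18 cartilage markers ran from 836 to 3017 CPM in CF and from 413 to 4401 CPM in WT, and of that list 0 markers rose and 2 fell with age in CF, against 2 that rose and 0 that fell in WT. The part of cartilage in the IHH level was not tested.

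**Figure D2:**
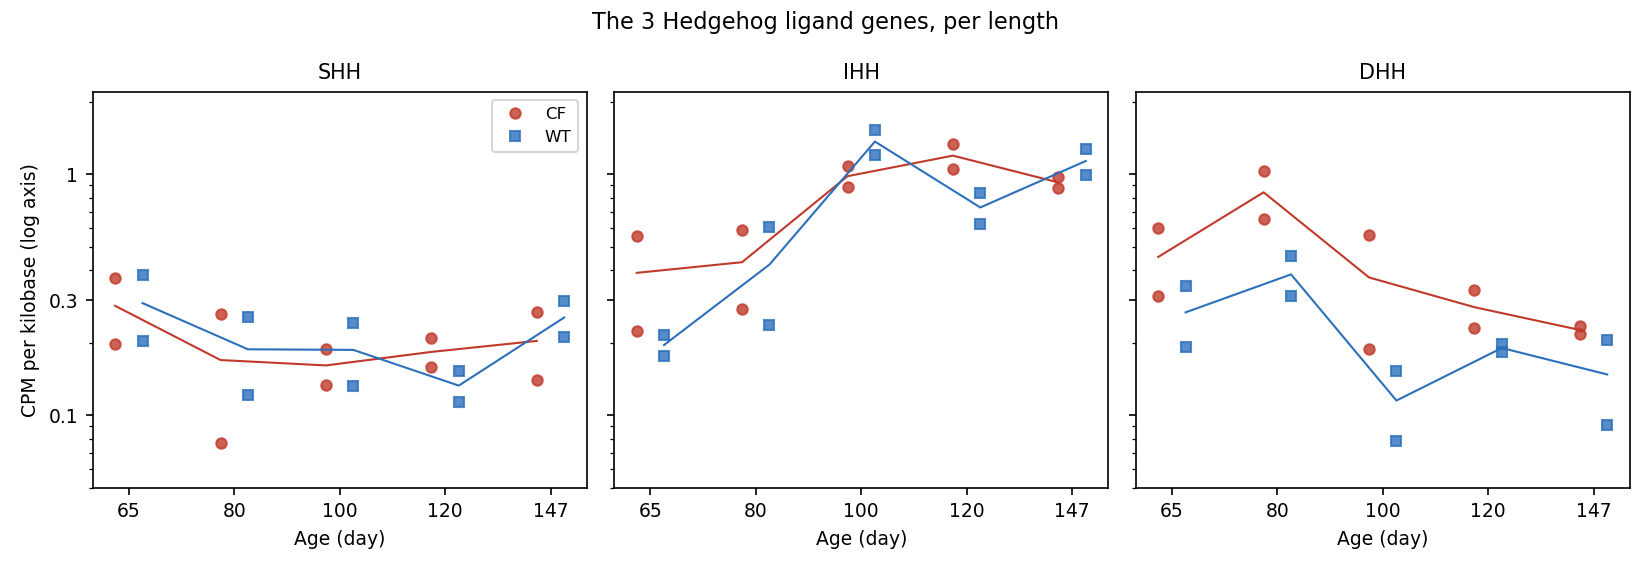
Level per kilobase on a log axis (vertical) against age in days (horizontal) for SHH, IHH and DHH, with CF as red circles and WT as blue squares, 1 point per library and lines through group means. All 8 late libraries lie above all 8 early ones for IHH, at 0.620 to 1.34 against 0.177 to 0.607 CPM per kilobase, and SHH stays between 0.0768 and 0.381.

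PTCH1, the receptor that is also a target, lies on chromosome 2 at 30649664 to 30710971 on the plus strand. Its replicate pairs from day 65 to day 147 were 38.0 and 43.7, 12.6 and 19.9, 30.4 and 31.5, 25.7 and 34.5, and 30.4 and 21.1 CPM in CF. In WT they were 53.0 and 31.8, 20.6 and 107, 22.7 and 22.9, 31.0 and 19.1, and 21.1 and 20.6 CPM. The level of 107 CPM stood alone, more than any other library, and came from WT day 80 replicate 2, in which thyroglobulin (TG), the storage protein of the thyroid, was at 106011 CPM and 13 thyroid markers summed to 110950 CPM, against at most 294.7 CPM in the other libraries. Its other replicate had 20.6 CPM of PTCH1. CF was below WT at day 80 without overlap, as for 10.8% of all tested genes. The difference of -1.97 ± 0.57 (log2 ± SE) was not called (Benjamini-Hochberg adjusted p = 0.278 in edgeR's quasi-likelihood test).

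With age, PTCH1 changed by 0.11 ± 0.39 in CF (log2 ± SE), at 27.9 ± 5.79 CPM late and 28.5 ± 14.7 CPM early, and by -1.19 ± 0.39 in WT, at 22.9 ± 5.46 CPM late and 53.0 ± 38.3 CPM early (SD, n = 4 each, overlapping). Neither was called by the edgeR quasi-likelihood test (Benjamini-Hochberg adjusted p = 0.912 and 0.0738). The CF value has another sign than the difference of its means because the fit averages logarithms. Without WT day 80 replicate 2 the WT change was -0.37. Without WT day 80 replicate 1, which leaves the library of thyroid genes alone in its group, it was -1.51. With all libraries it was called by DESeq2 (-1.16, adjusted p = 0.0269), and without the 5 libraries of low length slope it was -1.35.

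Of the co-receptors, GAS1 (chromosome 2, 32703422 to 32704979) had replicate pairs from day 65 to day 147 of 11.7 and 14.3, 17.4 and 16, 8.37 and 7.57, 5.03 and 6.79, and 4.24 and 3.34 CPM in CF. GAS1 is a membrane-anchored protein that helps ligand reach PTCH1. In WT the pairs were 14.3 and 11.7, 3.61 and 6.48, 0.813 and 0.867, 5.79 and 2.92, and 10.4 and 3.76 CPM. The genotypes were close to each other at day 65. CF libraries were above both WT libraries at days 80 and 100, as for 11.5% and 40.5% of all tested genes, and the genotypes overlapped at days 65, 120 and 147. In CF every late library was below every early one, at 4.85 ± 1.47 against 14.8 ± 2.46 CPM (SD, n = 4 each), and GAS1 fell by 1.64 ± 0.34 on the log2 scale (edgeR quasi-likelihood test, Benjamini-Hochberg adjusted p = 0.00831).

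In WT the late and early libraries of GAS1 overlapped, at 5.73 ± 3.37 and 9.0 ± 4.84 CPM, and the change of -0.54 ± 0.33 was not called (edgeR adjusted p = 0.334). The difference of the age changes, CF minus WT, was -1.10 ± 0.47 (unadjusted p = 0.0363, adjusted p = 0.976 in edgeR's test with Benjamini-Hochberg adjustment), so a difference between the genotypes in this change was not called. The fall in CF was called in each of the 20 fits that left out 1 library, with a highest adjusted p of 0.0428 in that edgeR test. It was not called without the 4 libraries that held genes of other tissues (-1.53, adjusted p = 0.0876) or with samples of a shared identifier summed (-1.63, adjusted p = 0.0590), by the same edgeR test.

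BOC (chromosome 1, 176140185 to 176213222), an immunoglobulin-domain co-receptor, had replicate pairs from day 65 to day 147 of 158 and 150, 121 and 150, 93.4 and 127, 107 and 106, and 99.4 and 78.1 CPM in CF. In WT they were 152 and 143, 112 and 52.0, 54.0 and 50.4, 86.4 and 85.3, and 59.1 and 80.4 CPM. CF libraries lay above both WT libraries at days 80, 100 and 120, and overlapped with them at days 65 and 147. Of all tested genes 11.5%, 40.5% and 8.91% lay so at days 80, 100 and 120. Over the mean of the ages BOC averaged 119 ± 26.9 CPM in CF and 87.5 ± 37.3 CPM in WT (SD, n = 10 libraries each), a log2 difference of 0.50 ± 0.14 that was not called (edgeR quasi-likelihood test, Benjamini-Hochberg adjusted p = 0.131). Without WT day 80 replicate 1 it was 0.62, with replicate 2, the library of thyroid and thymus genes, then alone in its group. With age BOC changed by -0.57 ± 0.21 in CF and -0.51 ± 0.21 in WT (log2 ± SE), and neither was called (edgeR adjusted p = 0.114 and 0.155). The CF change was called without WT day 80 replicate 1 or replicate 2 (edgeR adjusted p = 0.0316 and 0.0275), and the WT change without WT day 80 replicate 2 (-0.73, edgeR adjusted p = 0.0213). CDON, the relative of BOC with the same role, was called in no comparison, at 44.3 ± 11.8 CPM in CF and 44.9 ± 29.5 CPM in WT (SD, n = 10 each).

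SMO (chromosome 4, 93158594 to 93167798), the membrane protein that passes the signal into the cell, had replicate pairs from day 65 to day 147 of 78.1 and 78.9, 64.9 and 60.9, 50.6 and 57.6, 31.2 and 37.2, and 28.9 and 20.8 CPM in CF. Both CF libraries of each age lay below both of the age before. In WT the pairs were 96.4 and 79.2, 16.2 and 47.5, 17.3 and 30.2, 47.4 and 18.7, and 28.7 and 6.65 CPM, without such an order and with replicates up to 4.32-fold apart. Late CF libraries averaged 29.5 ± 6.80 CPM against 70.7 ± 9.16 CPM for early ones (SD, n = 4 each, no overlap), a log2 change of -1.27 ± 0.44 that was not called (Benjamini-Hochberg adjusted p = 0.0879 in edgeR's quasi-likelihood test). It was called when either WT day 147 library was left out, with -1.27 without replicate 1 and -1.26 without replicate 2 (adjusted p = 0.0347 and 0.0338 by the edgeR test), though neither library enters the contrast itself. It was also called by DESeq2 (-1.25, adjusted p = 0.0320), and by edgeR with the length slope as a covariate (-1.13, adjusted p = 0.0015) or without the 5 libraries of low slope (-1.20, adjusted p = 0.00172). The 5 libraries of low length slope had 6.65 to 31.2 CPM of SMO, with a median of 17.3, against 20.8 to 96.4 CPM and a median of 50.6 in the other 15, and the part of the slope in the level was not tested. In WT the age change of SMO, -1.13 ± 0.44, was not called with all libraries (edgeR adjusted p = 0.125). It was -1.37 without WT day 80 replicate 1, which leaves the library of thyroid and thymus genes alone in its group. Without WT day 147 replicate 1 it was -1.84.

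GLI1 (chromosome 3, 161689876 to 161698046, minus strand) is an activator whose own transcription depends on the pathway. Its replicate pairs from day 65 to day 147 were 11.3 and 17.1, 7.05 and 7.85, 5.81 and 8.33, 4.92 and 7.16, and 3.67 and 3.40 CPM in CF. In WT they were 12.5 and 14.0, 4.59 and 5.37, 2.14 and 1.28, 4.83 and 3.01, and 4.43 and 2.76 CPM. Day 65 was highest in both genotypes, and in WT day 100 was lowest. GLI1 fell with age in both: late libraries averaged 4.79 ± 1.71 against 10.8 ± 4.57 CPM early in CF, and 3.76 ± 1.03 against 9.11 ± 4.83 CPM in WT (SD, n = 4 each). The log2 changes were -1.15 ± 0.28 in CF and -1.11 ± 0.28 in WT, with adjusted p = 0.0200 and 0.0272 in edgeR's quasi-likelihood test (Benjamini-Hochberg), and late and early ranges overlapped slightly in either genotype. The CF call was lost without CF day 65 replicate 2, CF day 120 replicate 1 or either CF day 147 library (highest adjusted p = 0.102), and the WT call without either WT day 65 library, WT day 80 replicate 2, WT day 120 replicate 2 or WT day 147 replicate 2 (highest adjusted p = 0.119), all by the edgeR test.

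HHIP (chromosome 17, 13190565 to 13307281, minus strand) encodes a membrane decoy that binds ligand and damps the signal. Its replicate pairs from day 65 to day 147 were 9.38 and 14.7, 6.19 and 5.30, 6.82 and 6.90, 4.03 and 4.26, and 2.07 and 2.63 CPM in CF. In WT they were 13.4 and 9.58, 7.39 and 4.41, 1.44 and 2.26, 5.10 and 1.77, and 2.38 and 3.23 CPM. HHIP fell with age in both genotypes, to 3.25 ± 1.06 CPM late against 8.89 ± 4.23 CPM early in CF with no overlap, and to 3.12 ± 1.45 against 8.69 ± 3.77 CPM in WT with overlap (SD, n = 4 each). The log2 change was -1.41 ± 0.34 in either genotype, with adjusted p = 0.0192 in CF and 0.0224 in WT (edgeR quasi-likelihood test, Benjamini-Hochberg adjustment). The CF call was lost without CF day 65 replicate 2, CF day 80 replicate 1, or any 1 of the 4 late CF libraries (highest adjusted p = 0.0920), and the WT call without WT day 65 replicate 1, WT day 120 replicate 2 or either WT day 147 library (highest adjusted p = 0.0861), all by the edgeR test.

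GLI2 (chromosome 2, 185203631 to 185268493) is the main activator of the family in the mouse. Its replicate pairs from day 65 to day 147 were 18.7 and 18.8, 18.7 and 15.9, 23.3 and 23.7, 17.7 and 23.2, and 20.3 and 15.2 CPM in CF, a range of 1.56-fold over all 10 libraries. In WT they were 21.9 and 17.4, 10.2 and 9.86, 6.46 and 8.46, 23.7 and 18.3, and 18.3 and 10.6 CPM, a range of 3.66-fold. GLI2 varied little among ages in CF, and in WT it was low at days 80 and 100 with both libraries below all CF libraries. The late to early change was 0.08 ± 0.21 in CF and 0.31 ± 0.21 in WT (log2 ± SE), and neither was called by the edgeR quasi-likelihood test (Benjamini-Hochberg adjusted p = 0.878 and 0.372). The test for any difference between ages did not call GLI2 in CF (adjusted p = 0.909) and called it in WT (adjusted p = 0.0226), in edgeR with Benjamini-Hochberg adjustment.

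GLI3 (chromosome 4, 78782503 to 79093399), mainly a repressor in the absence of ligand, was the most variable of the 9 genes. Its replicate pairs from day 65 to day 147 were 6.46 and 7.67, 3.93 and 1.58, 7.49 and 4.83, 1.14 and 7.24, and 6.17 and 2.28 CPM in CF. In WT they were 17.4 and 10.5, 0.692 and 4.28, 0.222 and 1.48, 7.32 and 0.288, and 8.25 and 0.376 CPM. Replicates of WT day 120 differed 25.4-fold, and no comparison was called. The 5 libraries of low length slope were the 5 lowest for GLI3, at 0.222 to 1.14 CPM, against 1.48 to 17.4 CPM in the other 15, and the part of the slope in the level was not tested. Without those 5 libraries the late to early change was 0.34 in CF and 0.05 in WT, against -0.07 and -0.54 with all libraries, and none of these values was called by edgeR's test (lowest Benjamini-Hochberg adjusted p = 0.602).

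**Figure D3:**
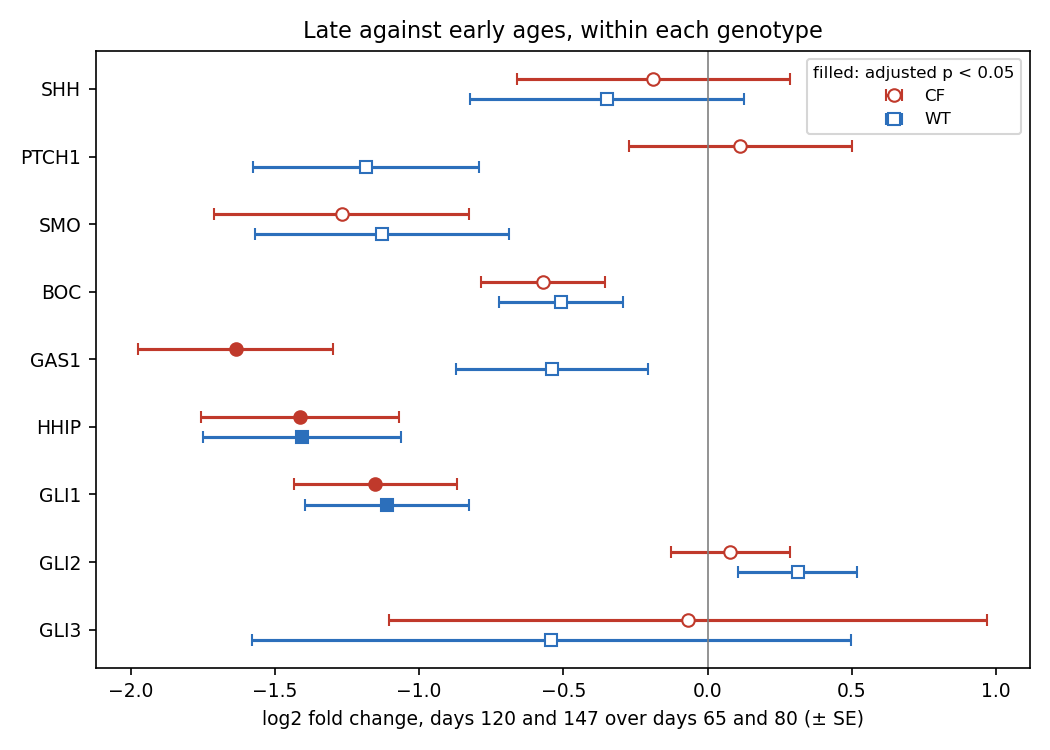
The log2 fold change of the late ages (days 120 and 147) over the early ages (days 65 and 80), with its standard error (horizontal), for each Hedgehog gene (vertical), in CF (red circles) and WT (blue squares), 4 late and 4 early libraries each. Filled symbols mark adjusted p under 0.05, which GLI1 and HHIP reached in both genotypes at -1.15 to -1.11 and at -1.41, and GAS1 in CF at -1.64.

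Counted together, 3 of the 9 genes (GLI1, GAS1 and HHIP) fell with age in CF, against 6.23% of all tested genes, and 2 (GLI1 and HHIP) fell in WT, against 5.47% of all tested genes. None of the 9 rose in either genotype. The median log2 change was -0.57 in CF and -0.54 in WT, against -0.01 and -0.03 over all tested genes. In CF all late libraries lay below all early ones for SMO, GAS1, HHIP and BOC (9.69% of all tested genes did so), and in WT for none of the 9 (5.33% of all tested genes). The edgeR test of the difference between these age changes called none of the 9 and 0.0% of all genes, with 2 of the 9 at an unadjusted p under 0.05 (PTCH1 and GAS1) and 3.96% of all tested genes, and DESeq2 called none. Of 32 fibroblast markers, 9 fell and 1 rose in CF with a median of -0.70, and 7 fell and 1 rose in WT with a median of -0.45. Of 18 nerve and Schwann cell markers, 8 fell and 1 rose in CF with a median of -1.45, and 5 fell and 1 rose in WT with a median of -0.54. Of 15 endothelial markers, 2 fell in CF and 0 in WT by the edgeR test, with medians of -0.72 and -1.03. The part of these cell types in the members' values was not tested. All 4 libraries of other tissues were early ones, so the fit without them kept 1 library in each early group. Fewer early samples and less other tissue cannot be told apart in that fit. There GLI1 changed by -1.02 in CF and -1.01 in WT, HHIP by -1.18 and -1.68, and GAS1 in CF by -1.53. Without the 4 libraries of other tissues, and also with samples of a shared identifier summed, the edgeR test called none of the 9 in either genotype. Without the 5 libraries of low length slope both WT calls were lost (GLI1 -0.82, edgeR adjusted p = 0.1003, and HHIP -0.99, edgeR adjusted p = 0.0706), and PTCH1 and SMO were called in WT instead, at -1.35 and -0.77 (edgeR adjusted p = 0.0280 and 0.0258).

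When any difference between the 5 ages was tested, 0 of the 9 genes were called in CF, against 5.54% of all tested genes, with 3 at an unadjusted p under 0.05 (17.6% of all tested genes), and 5 in WT, against 9.17%. The 5 were GLI1, GAS1, HHIP, GLI2 and BOC, with adjusted p = 0.00513, 0.00552, 0.0194, 0.0226 and 0.0429 in edgeR's quasi-likelihood F test with Benjamini-Hochberg adjustment. All 5 had their lowest WT group mean at day 100, as did GLI3, which was not called. In CF, GLI1, GAS1 and HHIP came nearest, with adjusted p = 0.0626, 0.0678 and 0.0673 by the same edgeR test, and DESeq2 called these 3. The edgeR test called GAS1 in CF when any 1 library of WT day 80 or WT day 147 was left out, and HHIP when either library of WT day 120 was. Of the 5 WT calls, GAS1 alone was left without the 4 libraries of other tissues (GLI1 then had edgeR adjusted p = 0.0778), and GLI1 alone with samples of a shared identifier summed (GAS1 then had edgeR adjusted p = 0.0823). Leaving out 1 library ended no WT call of GLI1 or GAS1. It ended that of GLI2 without WT day 65 replicate 1, either WT day 100 library or WT day 120 replicate 1, and that of HHIP without either library of WT day 65 or of WT day 100. The BOC call was lost in 17 of the 20 such fits, all but those without WT day 80 replicate 1, WT day 80 replicate 2 or WT day 147 replicate 1 (highest edgeR adjusted p = 0.195).

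CF was next compared with WT at single ages. At day 65, the earliest age, none of the 9 genes was called, against 0.00995% of all tested genes, 0 had an unadjusted p under 0.05 in edgeR's test, and DESeq2 called none. GAS1 averaged 12.96 ± 1.84 CPM in CF and 12.96 ± 1.84 CPM in WT (SD, n = 2 each), and BOC 154 ± 5.69 CPM in CF and 148 ± 6.28 CPM in WT. At day 80 none was called, against 0.0% of all tested genes, and 4 had an unadjusted p under 0.05 in edgeR's test, as did 9.57% of all tested genes. These were GAS1, GLI2 and BOC, higher in CF by 1.73 ± 0.48, 0.78 ± 0.29 and 0.72 ± 0.30 on the log2 scale, and PTCH1, lower. DESeq2 called GAS1 and PTCH1 at this age. The fit without WT day 80 replicate 1 leaves replicate 2 alone in that group. That library held thyroid and thymus genes and had 107 CPM of PTCH1 and 52.0 CPM of BOC.

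At day 100, 3 of the 9 genes were higher in CF, against 1.4% of all tested genes that were called higher. GAS1 was at 8.37 and 7.57 CPM in CF libraries against 0.813 and 0.867 CPM in WT, a log2 difference of 3.24 ± 0.51 (9.47-fold, adjusted p = 0.00873 in edgeR's quasi-likelihood test with Benjamini-Hochberg adjustment). GLI1 was at 5.81 and 8.33 CPM in CF libraries against 2.14 and 1.28 CPM in WT, a difference of 2.05 ± 0.41 (edgeR adjusted p = 0.0293). GLI2 was at 23.3 and 23.7 CPM in CF libraries against 6.46 and 8.46 CPM in WT, a difference of 1.65 ± 0.30 (edgeR adjusted p = 0.0172). HHIP, at 1.89 ± 0.49, and BOC, at 1.08 ± 0.31, were not called by that edgeR test (adjusted p = 0.0879 and 0.116), although DESeq2 called both. Both CF libraries lay above both WT libraries for 8 of the 9 genes, SHH being the exception, and for 40.5% of all tested genes. The median difference of the 9 was 1.65, against 0.12 over all tested genes.

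Library properties and markers of other cell types also differed at day 100. The length slope was 0.0688 and 0.0709 in the CF libraries and -0.146 and -0.0993 in the WT libraries. Its part in the members' values was not tested. Of the 32 fibroblast markers 16 were called higher in CF, with a median of 2.21, and COL1A1, the main fibrous collagen, was at 11924 ± 798 CPM in CF libraries against 640 ± 57.8 CPM in WT (SD, n = 2 each). Of 30 epithelial markers 0 were called in either direction by the edgeR test, with a median of -0.70. The fibroblast score, a mean of log2 deviations from each marker's average, was 0.35 and 0.40 in the CF libraries and -1.62 and -1.92 in the WT libraries. Of 15 endothelial markers 0 were called by the edgeR test, but their median was 1.93, with scores of -0.41 and 0.18 in the CF libraries and -1.81 and -2.33 in the WT libraries. Of 18 nerve and Schwann cell markers 4 were higher and 1 lower in CF, with a median of 0.72, and the 18 cartilage markers had a median of 1.00. Smooth muscle scores were 0.20 and 0.18 in the CF libraries and 0.61 and -3.09 in the WT libraries. The part of these cell types in the members' values was not tested. All 3 calls rest on both WT day 100 libraries. Without replicate 1 or without replicate 2 of that group none of the 9 was called, and without either CF day 100 library GAS1 alone was, by the edgeR test. The GLI1 call was also lost without either CF day 80 library, CF day 120 replicate 1 or CF day 147 replicate 2, none of which enters the contrast itself. Over the 20 fits that left out 1 library, day 100 libraries included, the GLI1 difference ran from 1.64 to 2.37. Without the 4 libraries of other tissues, none of them from day 100, the GLI1 and GLI2 calls were lost (edgeR adjusted p = 0.0694 and 0.0590) and that of GAS1 was not (0.0351). With the identifier shared by the 2 WT libraries summed to 1 sample, the differences were 3.11, 2.02 and 1.49 for GAS1, GLI1 and GLI2, and none was called (lowest edgeR adjusted p = 0.245).

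**Figure D4:**
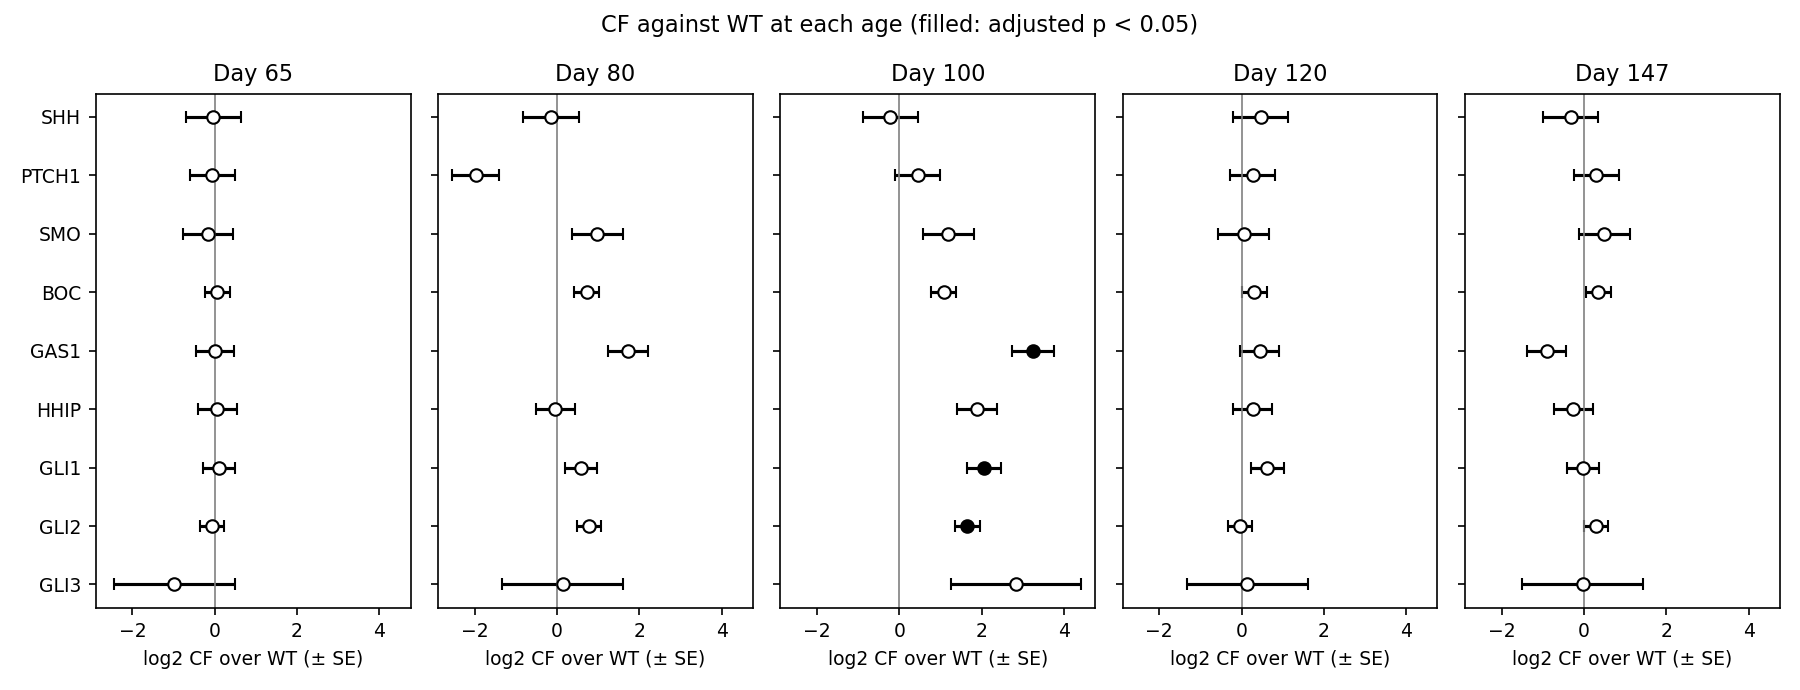
The log2 difference of CF over WT with its standard error (horizontal) for each Hedgehog gene (vertical), 1 panel per age from day 65 to day 147, 2 libraries per genotype and age. Filled symbols, adjusted p under 0.05, appear only at day 100, for GAS1 at 3.24, GLI1 at 2.05 and GLI2 at 1.65.

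At day 120 none of the 9 was called, against 0.0% of all tested genes, and at day 147 none was called, against 0.0945%, with 0 of the 9 at an unadjusted p under 0.05 at either age in edgeR's test and none called by DESeq2. GLI2 averaged 20.5 ± 3.86 CPM in CF and 21.0 ± 3.78 CPM in WT at day 120 (SD, n = 2 each). GAS1 averaged 3.79 ± 0.634 CPM in CF and 7.10 ± 4.73 CPM in WT at day 147, the opposite order to day 100, with overlapping libraries. Fibroblast scores at day 147 were -0.68 and -0.85 in CF and 0.12 and -0.27 in WT. The edgeR F test that the genotype difference was the same at all ages called none of the 9, against 0.0697% of all tested genes, and 4 had an unadjusted p under 0.05, as did 7.28% of all tested genes. DESeq2 called GAS1 and GLI2. GAS1 came nearest, with adjusted p = 0.129 in that edgeR test. Which genes were called changed without WT day 80 replicate 1 or WT day 147 replicate 2, and each of these fits leaves 1 library in the group. At day 80 the library left is that of thyroid and thymus genes.

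Over the mean of the 5 ages none of the 9 genes was called between CF and WT, against 0.766% of all tested genes, and 4 had an unadjusted p under 0.05 in edgeR's test. Of all tested genes 11.2% had such a p. DESeq2 called these 4 (GAS1, GLI1, GLI2 and BOC). GAS1 averaged 9.46 ± 5.05 CPM in CF and 6.06 ± 4.64 CPM in WT (SD, n = 10 libraries each), a log2 difference of 0.90 ± 0.21 (edgeR quasi-likelihood test, Benjamini-Hochberg adjusted p = 0.0769). GLI1, GLI2 and BOC were higher by 0.67 ± 0.18, 0.53 ± 0.13 and 0.50 ± 0.14 on that scale (edgeR adjusted p = 0.128, 0.0998 and 0.131). The differences of GAS1 and GLI2 were called without WT day 147 replicate 1, at 1.08 and 0.62 (edgeR adjusted p = 0.0195 and 0.0330), and that of GAS1 also without WT day 80 replicate 2. Without the day 100 libraries the differences were 0.32 for GAS1, 0.32 for GLI1, 0.24 for GLI2 and 0.36 for BOC (lowest edgeR adjusted p = 0.792), so that the first 3 shrank by more than 1.5-fold.

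**Figure D5:**
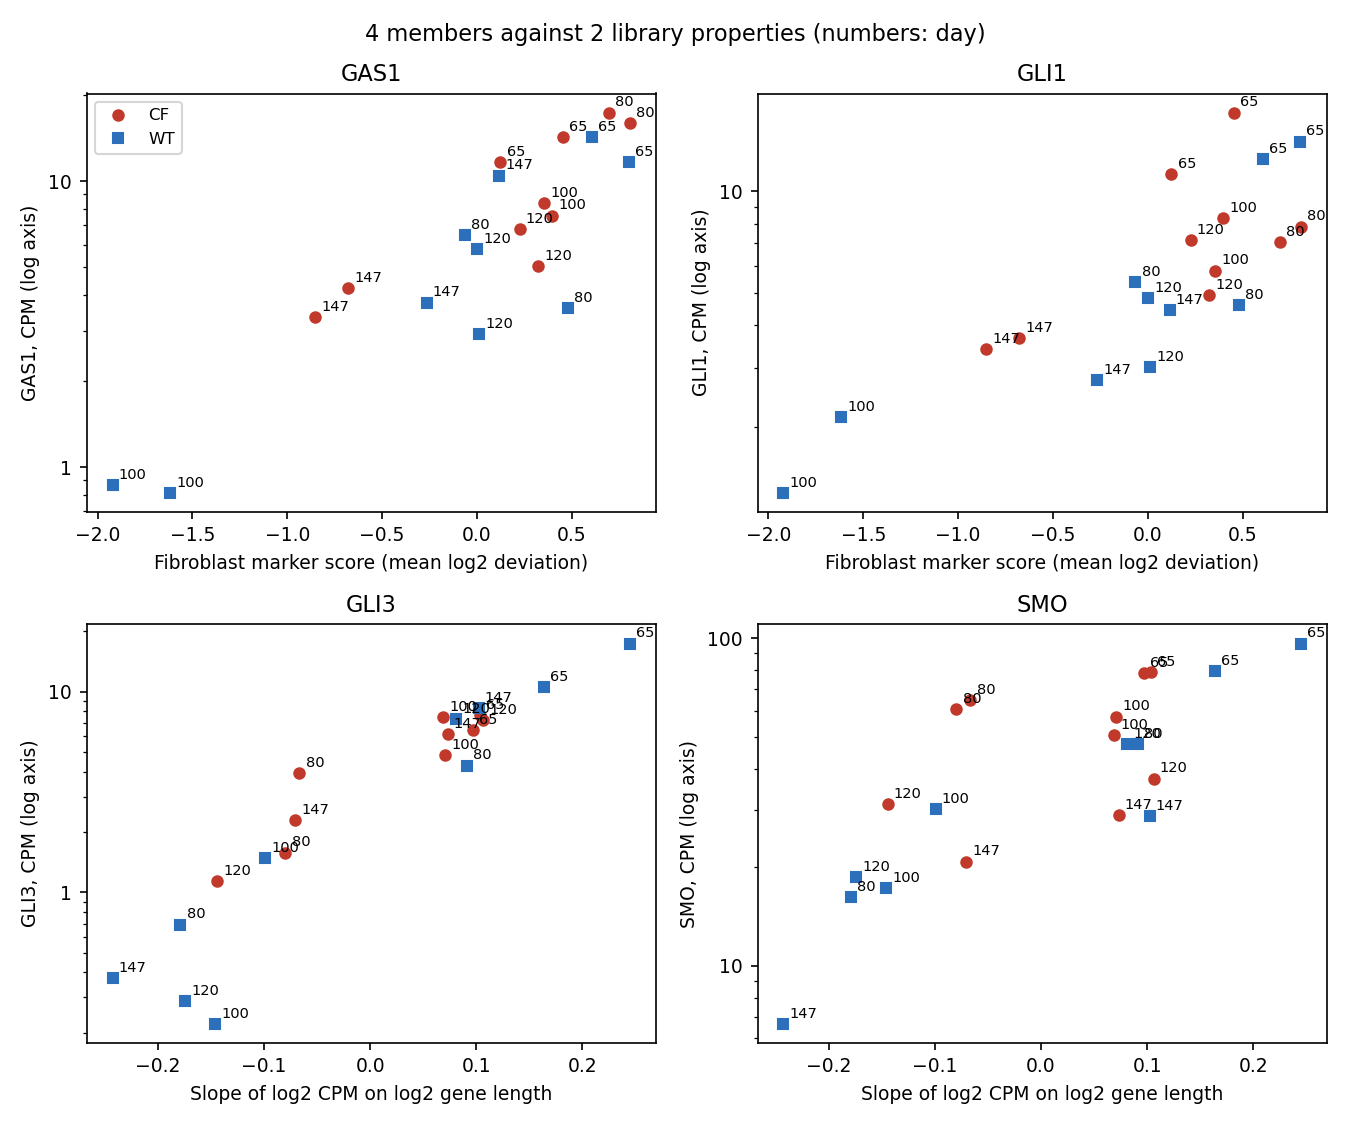
CPM on a log axis (vertical) of GAS1 and GLI1 against the fibroblast marker score of the library, and of GLI3 and SMO against its slope of log2 CPM on log2 gene length (horizontal), for 10 CF libraries (red circles) and 10 WT libraries (blue squares), each marked with its day. Both WT day 100 libraries lie at fibroblast scores of -1.62 and -1.92 with the lowest GAS1, 0.813 and 0.867 CPM, and the 5 lowest GLI3 levels, 0.222 to 1.14 CPM, lie at slopes under -0.12.

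Across the 20 libraries the log2 CPM of GLI1 ran with that of HHIP (Pearson r = 0.88), GAS1 (0.88), BOC (0.82) and SMO (0.78), and less with PTCH1 (0.40) and SHH (0.18). These correlations are descriptions over 20 libraries that share ages, depth and tissue makeup. Among 12501 genes with a mean log2 CPM of at least 1, the pattern most like that of GLI1 was that of SLITRK2 (r = 0.94), followed by KLF12, ROR1, PRICKLE2 and COL6A6. For HHIP it was CHD5 (r = 0.93), followed by NLGN3, TFPI, DKK2 and LOXL3. For SHH the closest was ANPEP (r = 0.78), then CA13, GNA14, TENM1 and ALCAM. For PTCH1 it was SLC29A3 (r = 0.91), then RGS9, DNASE1, ABCA5 and NUS1, in a pattern that holds the outlying level of 107 CPM in WT day 80 replicate 2.

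Other genes of the pathway were read from a list of 77 ligand-handling, receptor, cytoplasmic and target genes, of which 72 were in the files and 71 were tested. At the late ages 4 of the 71 rose and 9 fell in CF, and 4 rose and 8 fell in WT, with medians of -0.35 and -0.31. Of all 20097 tested genes 995 rose and 1253 fell in CF, and 960 rose and 1100 fell in WT, so the shares of the list that rose were near those of all genes. The shares that fell, 9 of 71 in CF and 8 of 71 in WT, were above the 6.23% and 5.47% of all tested genes. SPP1, the matrix protein osteopontin, fell by 3.93 ± 0.48 on the log2 scale in CF, to 56.0 ± 55.1 CPM late against 452 ± 139 CPM early (SD, n = 4 each, edgeR adjusted p = 0.000427), and by 2.80 ± 0.46 in WT (edgeR adjusted p = 0.00249). SFRP1, a secreted Wnt antagonist, fell by 2.30 ± 0.67 in CF and by 3.93 ± 0.72 in WT (edgeR adjusted p = 0.0436 and 0.00508), where the early group held 3136 CPM in WT day 80 replicate 2 and 99.9 to 203 CPM in its other 3 libraries. GPC3 and GPC6, glypicans of the cell surface, fell by 1.61 ± 0.25 and 1.54 ± 0.27 in CF (edgeR adjusted p = 0.00168 and 0.00295), and PTHLH, a hormone-like peptide of cartilage and epithelium, rose by 1.58 ± 0.45 (edgeR adjusted p = 0.0389). DISP1, which releases ligand from the cell that makes it, fell by 1.11 ± 0.18 in WT, MYCN, a growth-promoting transcription factor, fell by 2.91 ± 0.59, and IQCE, a protein of the ciliary base, rose by 1.09 ± 0.23 (edgeR adjusted p = 0.00237, 0.00896 and 0.0113). Both DISP1 in CF and GPC6 in WT also fell with age and were called by the same edgeR test.

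Between genotypes, 3 of the 71 were higher in CF at day 100 and none lower, against 1.4% of all tested genes called higher, and their median was 0.73, against 0.12 over all tested genes. CNTFR, a cytokine receptor subunit, was at 10.5 and 12.7 CPM in CF libraries against 0.222 and 0.684 CPM in WT, SCUBE1, a secreted protein of a family that includes ligand carriers, at 4.58 and 5.47 against 0.554 and 0.593 CPM, and DISP1 at 26.5 and 23.7 against 10.8 and 10.9 CPM. The log2 differences were 4.65 ± 0.63, 3.13 ± 0.69 and 1.21 ± 0.26 (edgeR quasi-likelihood test, Benjamini-Hochberg adjusted p = 0.00488, 0.0436 and 0.0367), at the age when fibroblast markers also differed. CNTFR was the 1 gene of the list called over the mean of the ages, at 1.23 ± 0.24 (edgeR adjusted p = 0.0380). SUFU, the cytoplasmic inhibitor of GLI proteins, averaged 35.8 ± 5.85 CPM in CF and 30.1 ± 10.2 CPM in WT (SD, n = 10 each). FOXF1, a mesenchymal target in the mouse, differed by -0.03 over the mean of the ages. Neither was called in any comparison. At days 65, 80, 120 and 147 none of the 71 was called in edgeR's test.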

How the data were processed

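Total RNA came from frozen tracheal tissue, 50 to 100 mg of which was homogenised per sample, per the labels' protocols. The submitters' processing notes name STAR 2.6 for alignment and, for counting, featureCounts 1.6.3 from Subread. The authors deposited raw gene counts, which are whole and not normalized, with positions and summed exon lengths per the file headers. Genome build, annotation and strand setting: not given in the sources used here. Even numbers made up 70.7% to 85.3% of low counts (1 to 20) per library, so counts may exceed independent molecules. Precision was taken from replicates, since intervals from counts cover counting error only.

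All main tests were made with edgeR 4.0.16 (R 4.3.3). After filterByExpr and TMM scaling, a quasi-likelihood model was fitted with 1 coefficient for each of the 10 groups, over all 20 samples. Adjusted p are Benjamini-Hochberg values over 20097 genes, with a threshold of 0.05, and SE is log2 fold change over the square root of F. The comparisons share libraries. CPM use the TMM library sizes, and correlations use log2 CPM with a prior count of 2. Symbols were added to 501 identifiers from RefSeq ARS-UI_Ramb_v3.0, for names only. The steps were tested on simulated data, with changes planted only in genes with a mean of at least 2 CPM. SHH and DHH, with means of 1.18 and 0.479 CPM, lie below that level, so the recovery does not cover them. In the simulated data the late against early test in WT recovered 8.96% of 2-fold changes, 86.6% of 4-fold changes and 100% of 16-fold changes. The genotype test averaged across ages recovered 52.2%, 98.5% and 100%. Uncalled age changes near 2-fold are therefore weak evidence of no change.

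Named genes are the 9 members, further pathway genes named whatever their values (IHH, DHH, CDON, SUFU and FOXF1, with 1 other gene not reported here), up to 6 called genes per comparison from the pathway list by size of change, the 5 nearest genes for 4 members, and marker genes. The members and lists were chosen with earlier results of these data known. Alternatives were DESeq2 1.42.0, limma-voom (limma 3.58.1), other scalings and filters, a length covariate, a replicate block, summed identifiers, and fits without given libraries or day 100. The fit without the libraries of low length slope was chosen after seeing the data.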

Additional observations from a re-analysis of the deposited data

Results flagged for a closer look

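A gap rule that chance meets in about 1 in 20 groups was applied to 54 sets of libraries, and it marked 3 values. PTCH1 in WT day 80 replicate 2 was at 107 CPM, with the next of the 10 WT libraries at 53.0 CPM, and this library also held thyroid genes. Among the 4 late WT libraries PTCH1 was highest in WT day 120 replicate 1, at 31.0 CPM, with the next at 21.1 CPM. Among the 4 early CF libraries GLI2 was lowest in CF day 80 replicate 2, at 15.9 CPM, with the next at 18.7 CPM.

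For 3 genes the CF libraries lay wholly above the WT libraries at 1 age and wholly below at another. PTCH1 was higher in CF at day 100 and lower at day 80 (log2 difference -1.97), SMO was higher in CF at days 80 and 100 and lower at day 65 (-0.16), and GLI3 was higher in CF at day 100 and lower at day 65 (-0.98). Such separation of 2 libraries from 2 was common: CF lay wholly below WT for 23.7% of all tested genes at day 65 and 10.8% at day 80, and wholly above for 11.5% at day 80 and 40.5% at day 100. The difference between those ages was not tested pairwise. The F test over all ages called none of the 3 (edgeR quasi-likelihood test, Benjamini-Hochberg adjusted p = 0.683 for PTCH1, 0.993 for SMO and 0.993 for GLI3).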

How the results depend on the processing

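The counts of the 9 genes called at day 65, at day 120 and in the difference of age changes stayed at 0 in every alternative run. DESeq2 called 4 over the mean of the ages, 2 at day 80, 5 at day 100, 3 for any age difference in CF and 2 for a genotype difference that varies with age. The length covariate gave 5 over the mean, 1 at day 80, 1 at day 147, 5 late against early in CF, 4 late against early in WT, 4 for any age difference in CF and 1 for the varying genotype difference. Without the low-slope libraries the same 7 comparisons gave 2, 3, 0, 5, 2, 4 and 1, the 2 in WT being PTCH1 and SMO in place of GLI1 and HHIP. With identifiers summed, counts were 0 at day 100, 0 and 0 late against early in CF and WT, and 1 for any age difference in WT. Without the 4 libraries of other tissue they were 1, 0, 0 and 1. limma-voom called 2 for any age difference in CF.

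Leaving out 1 library at a time, counts ran from 0 to 2 over the mean, 0 to 2 at day 80, 0 to 4 at day 100, 1 to 4 and 0 to 4 late against early in CF and WT, 0 to 1 and 2 to 6 for any age difference in CF and WT, and 0 to 2 for the varying genotype difference.

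Replicate numbers were not used as pairs in the main fit. Over 45 pairs of groups the deviations of same-numbered samples correlated from -0.59 to 0.73, with a median of 0.02 and 12 over 0.1. With so wide a range, this check cannot settle whether the numbers pair the samples. With a replicate block 3 of the 9 were called at day 100, 3 late against early in CF, 2 late against early in WT, and 4 for any age difference in WT, BOC being lost.

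Signs turned for some values that were never called: SHH over the mean with library size alone (0.0347), PTCH1 over the mean without the 4 libraries (0.10), GLI3 over the mean without day 100 (-0.18) and without low-slope libraries (-0.12), GLI3 late against early in CF without the 4 libraries (0.40) and without low-slope libraries (0.34), and in WT with the length covariate (0.27), without the 4 libraries (0.22) and without low-slope libraries (0.0510). Without 1 library, values ran from -0.30 to 0.0635 for SHH and -0.36 to 0.12 for PTCH1 over the mean, in CF with age from -0.50 to 0.40 for SHH, -0.0317 to 0.32 for PTCH1, -0.0329 to 0.18 for GLI2 and -1.01 to 0.33 for GLI3, and in WT with age from -0.57 to 0.0179 for SHH and -2.40 to 0.38 for GLI3. The causes were not tested. With 2 samples a group, differences at 1 age that are small against the SE could not be seen. In simulated data the test of late against early ages in WT also missed most 2-fold changes in genes of at least 2 CPM, recovering 8.96%.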
